A study of Mus musculus with 56 samples.

Results

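These values describe how fl/fl mammary tumor cells, the β-catenin wild-type reference of the series, responded to 4 days of TGFβ. They rest on 4 of the 56 samples, chosen by their labels alone: 2 samples grown without TGFβ for 4 days and 2 treated with 2 ng/ml TGFβ for the same time. All cells came from tumors of MMTV-PyMT mice, which carry the polyoma middle T antigen under the mammary tumor virus promoter on the FVB/N background. Per the study's methods, the mice were 12-week-old females, fibroblasts were removed from the cultures by differential trypsinization, the fl/fl cells carry 2 floxed β-catenin (Ctnnb1) alleles, and the medium was renewed with TGFβ every second day. The labels name neither Cre treatment nor the number of lines per genotype. The methods call the 2 samples of a group biological duplicates. Neither they nor the labels say whether these came from separate lines or cultures. The paper's results name 2 independent fl/fl lines in a reporter assay and say that its lines were then sequenced. Which line a sample came from is not stated. The p-values measure the spread between samples of the same group, part of which may be technical. In the main fit this spread was pooled over 24 samples of 12 conditions, so most of it comes from samples outside these 4. The rest of the series holds the same TGFβ experiment in 24 samples of the D164A/fl, D164A/-, ΔC/fl, ΔC/-, dm/fl and dm/- genotypes, and 4 fl/fl samples with or without 100 ng/ml Wnt3a for 3 days.

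TGFβ binds a complex of type I and type II receptor kinases, which phosphorylate Smad2 and Smad3. With Smad4 these enter the nucleus, bind the short DNA motif called the SMAD box, often beside AP-1 sites, and change transcription. In mammary epithelial cells the cytokine can induce epithelial-mesenchymal transition (EMT), in which cells lose junctions and epithelial transcription factors and gain matrix, proteases, integrins and vimentin.

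The starts of 3 genes that rose with TGFβ are shown for their spacing of these motifs: Dgkk, which encodes a diacylglycerol kinase, Tgfbi, which encodes a secreted matrix protein named for its induction by TGFβ, and Zeb2, which encodes a repressor of epithelial genes. Each sequence holds the 250 bases before a RefSeq start on GRCm38.p6, on the gene's strand. Capitals mark each SMAD box (CAGAC, or GTCTG on the other strand) in Dgkk and Tgfbi and each AP-1 motif (TGANTCA, either strand) in Zeb2.
Dgkk, chrX:6779056-6779305, plus strand: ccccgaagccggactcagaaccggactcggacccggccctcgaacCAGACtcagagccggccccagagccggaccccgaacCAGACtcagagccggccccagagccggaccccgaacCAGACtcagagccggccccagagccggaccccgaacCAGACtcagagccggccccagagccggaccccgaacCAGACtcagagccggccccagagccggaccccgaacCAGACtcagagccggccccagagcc
Tgfbi, chr13:56609336-56609585, plus strand: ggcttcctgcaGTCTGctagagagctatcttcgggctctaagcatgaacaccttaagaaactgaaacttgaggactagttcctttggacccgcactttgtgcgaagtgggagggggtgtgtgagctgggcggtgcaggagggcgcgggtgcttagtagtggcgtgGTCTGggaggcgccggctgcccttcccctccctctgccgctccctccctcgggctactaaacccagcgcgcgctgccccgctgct
Zeb2, chr2:45110278-45110527, minus strand, the most downstream of 4 listed starts: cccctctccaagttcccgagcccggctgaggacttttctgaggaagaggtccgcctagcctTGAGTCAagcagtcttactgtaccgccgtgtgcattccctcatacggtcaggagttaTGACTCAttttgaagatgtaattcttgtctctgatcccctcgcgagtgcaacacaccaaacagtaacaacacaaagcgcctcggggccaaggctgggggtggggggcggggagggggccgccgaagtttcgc
The Dgkk window held 6 SMAD boxes, each 36 bases from the next. They lie in a tandem repeat of the same 36 bases, so they are copies of 1 stretch. Tgfbi held 2, which lay 239 and 85 bases before the start. Zeb2 held 2 AP-1 motifs, 189 and 132 bases before its start. A SMAD box was present in 42.2% of all 32851 promoter windows, 40.5% of those of tested genes, 47.9% of those of genes that rose and 39.7% of those of genes that fell. The AP-1 motif was present in 6.75%, 4.99%, 11.7% and 6.25% of the same sets. These shares are descriptions of the letters in the windows and were not tested. Of 18 strongly risen or preselected genes that rose, 8 had an entry in the promoter table, with 13 starts. Of these 8 genes, 3 held a SMAD box and 1 an AP-1 motif at 1 or more starts, while Col5a3, Csf2, Itga5 and Vim held neither. The 3 other Zeb2 starts also held neither.

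Expression is given as CPM, which here means reads per 1000000 reads of an effective library size. The 4 samples held between 24999966 and 30283228 reads, and 1 read was worth 0.0368 to 0.0444 CPM. A gene was called changed at an adjusted p of at most 0.05 (limma, Benjamini-Hochberg over all genes tested) and a change of at least 1 on the log2(CPM + 1) scale, a scale that understates the change of genes at low CPM. In bulk RNA, more cells that express a gene and more RNA per cell cannot be told apart. As to cell type, the 15 luminal epithelial markers summed to 4480 and 4160 CPM without and 4460 and 4310 CPM with TGFβ. The sum covers members that differed. Of the 15, 11 were below 0, with a median change of -0.62 on the log2 scale. Both limma and edgeR called 2 lower, Cdh1 and Prlr for limma, and 0 higher. At an unadjusted p under 0.05, 7 were lower and 0 higher. The 10 basal and myoepithelial markers summed to 681 and 679 CPM without and 169 and 219 CPM with TGFβ. Summed fibroblast markers were at 11.2 and 5.58 CPM without and 30.4 and 32.9 CPM with TGFβ, and 5 of these 11, Lum, Thy1, Fap, Dpt and Pi16, were at 0 in all 4 samples. Of the 5 fibroblast markers tested, limma called 3 higher and 0 lower, with a median change of 1.04 on the log2 scale, and edgeR 2 and 0. Summed leukocyte markers were at 59.5 and 75.5 CPM without and 167 and 218 CPM with TGFβ, nearly all of it Csf1r, while Ptprc, Cd3e and Adgre1 were at 0. Endothelial markers stayed at or below 3.71 CPM and adipocyte markers at or below 0.443 CPM in sum. The part that other cell types have in the results was not tested.

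TGFβ changed 965 of 12868 tested genes, or 7.5%. Of these, 522 rose (4.06% of the genes tested) and 443 fell (3.44%), and for every one of the 965 the treated and untreated samples did not overlap. Such a separation was also common elsewhere, with 6071 tested genes (47.2%) not overlapping. Among the called genes, 193 rose and 173 fell by at least 2 on the log2 scale, and 14 rose and 3 fell by at least 5. The matrix metalloprotease gene Mmp9 had the largest increase and Scara5, a scavenger receptor that binds ferritin, the largest decrease of all tested genes on the log2(CPM + 1) scale. In ratios of the CPM means the order differed, with 642-fold for Olfm2, which had 5 reads in the untreated samples, and 312-fold for Mmp9. Without replicate 2 of the treated samples the count was 598 genes, with 338 that rose and 260 that fell, and without replicate 1 of the treated samples 339 rose. Both β-catenin alleles are floxed in all 4 samples, and Ctnnb1 itself was at 815 and 1045 CPM without and 1316 and 1216 CPM with TGFβ (log2 fold change 0.45 ± 0.19 SE, adjusted p = 0.209).

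The response was spread unevenly over 31 lists of genes by function, which hold 980 genes. Of these, 869 were tested, 98 were called higher and 79 lower, beside 522 (4.06%) and 443 (3.44%) of all 12868 tested genes. The lists were chosen with earlier results of these data known, so the counts describe the response and do not test for an excess. Counts at an unadjusted p under 0.05, given for the luminal markers and some lists, have no share over all genes at that limit beside them. With a change of at least 1.5-fold also required, 962 of the 12868 tested genes were higher and 1029 lower. In the lists of secreted matrix and its processing, more members rose than fell, apart from proteoglycans and hyaluronan with 3 in each direction. Among epithelial transcription factors and tight and gap junctions, more fell. The median change of all tested genes was -0.039 on the log2 scale, and rescaling by the median of ratios moved it to -0.0028.

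**Figure D1:**
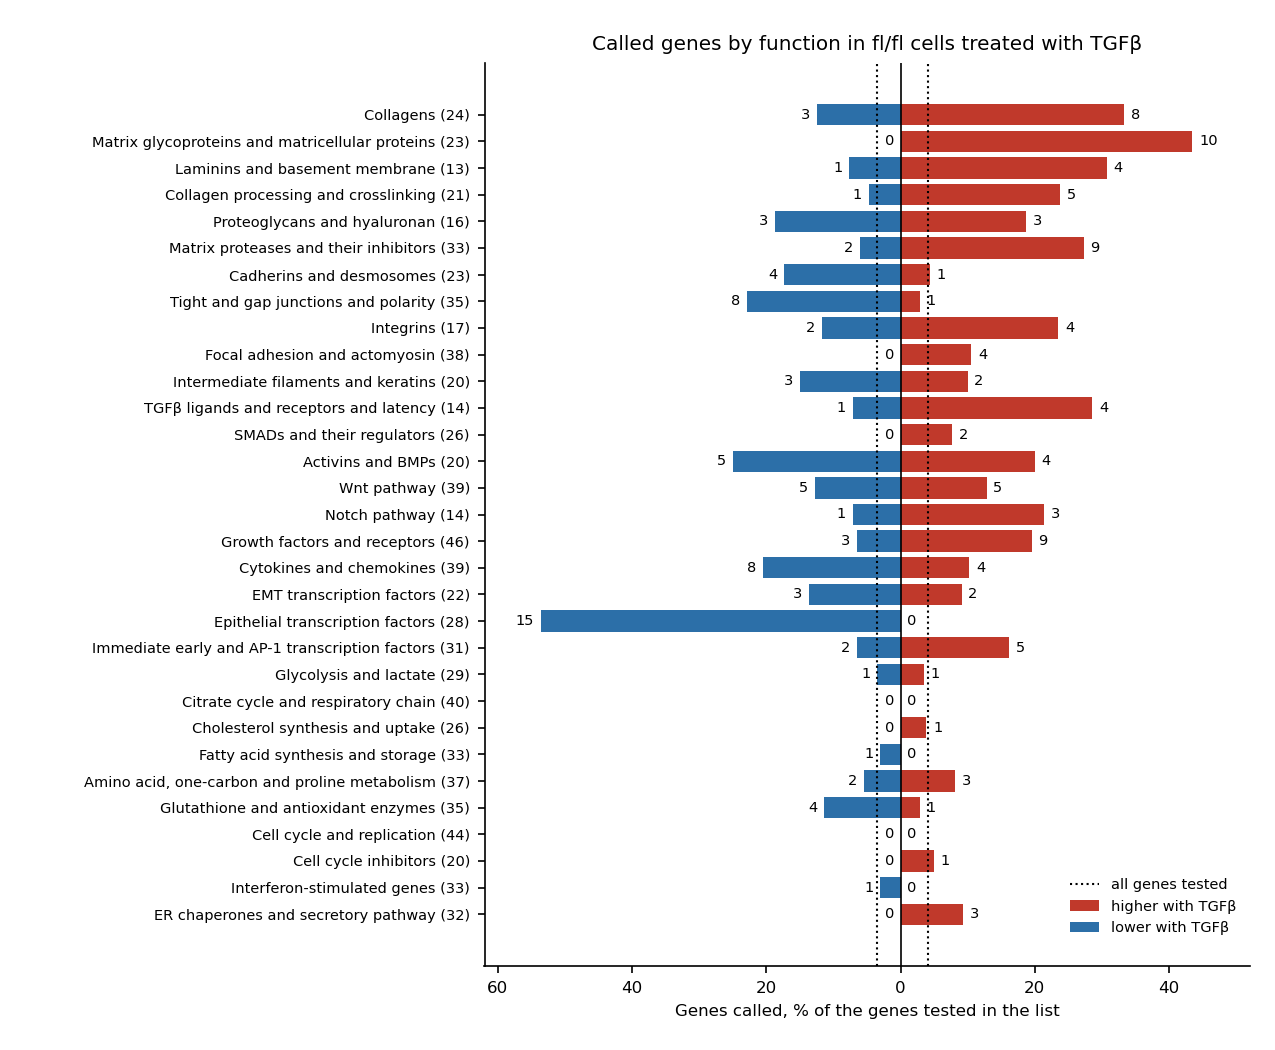
Share of the tested genes of each of 31 function lists that were called higher (red, to the right) or lower (blue, to the left) with TGFβ in fl/fl cells, in percent, with the number of genes beside each bar and the number tested in parentheses. Dotted lines mark the shares over all genes tested, 4.06% higher and 3.44% lower. The longest bars are the 15 of 28 epithelial transcription factors that fell and the 10 of 23 matrix glycoproteins that rose.

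Matrix glycoproteins, the adhesive and matricellular proteins between cells, had 10 of 23 tested members higher and 0 lower (12 higher and 2 lower at an unadjusted p under 0.05, 8 higher and 0 lower with edgeR), and a median of 1.05 on the log2 scale. Fibronectin (Fn1), to which cells attach through integrins, was at 7843 and 3607 CPM without and 38578 and 29652 CPM with TGFβ. It took 3.43% and 2.66% of all reads of the treated samples. The 2 untreated samples differed for this gene, and the call (log2 fold change 2.67 ± 0.66 SE, adjusted p = 0.0145) was lost without replicate 2 of the untreated (2.11, adjusted p = 0.153) or replicate 1 or 2 of the treated samples (adjusted p = 0.116 and 0.0658). Tenascin C (Tnc), an anti-adhesive glycoprotein of tumor stroma and wounds, went from 667 and 837 CPM to 19931 and 19103 CPM, a 26-fold difference of the means (4.71 ± 0.31 SE, adjusted p = 3.44e-08). Tnc RNA thus stood at 1.77% and 1.72% of reads with TGFβ against 0.0662% and 0.0826% without.

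The CCN proteins are matricellular regulators of adhesion and growth factor access. Ccn2, also known as connective tissue growth factor, was at 355 and 187 CPM without and 3485 and 2239 CPM with TGFβ (log2 fold change 3.43 ± 0.36 SE, adjusted p = 7.17e-06). Ccn4 went from 7.45 and 9.73 CPM to 397 and 393 CPM (5.38 ± 0.59 SE, adjusted p = 1.15e-05). The low-abundance Tgfbi was at 0.161 and 0.636 CPM without and 1.11 and 3.71 CPM with TGFβ, and its call (1.19 ± 0.29 SE, adjusted p = 0.0139) did not hold with edgeR (adjusted p = 0.11), with all 56 samples in the fit (adjusted p = 0.153), with only the 4 samples in the fit (adjusted p = 0.207), or without replicate 1 of the untreated (adjusted p = 0.158) or replicate 2 of the treated samples (adjusted p = 0.276). The matrix glycoproteins together held 1.18% and 0.819% of all reads without and 6% and 5.13% with TGFβ. Clu, which encodes the secreted chaperone clusterin and is named here after its values were seen, was at 259 and 208 CPM without and 6015 and 6411 CPM with TGFβ and was the fourth most abundant transcript of the treated samples.

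**Figure D2:**
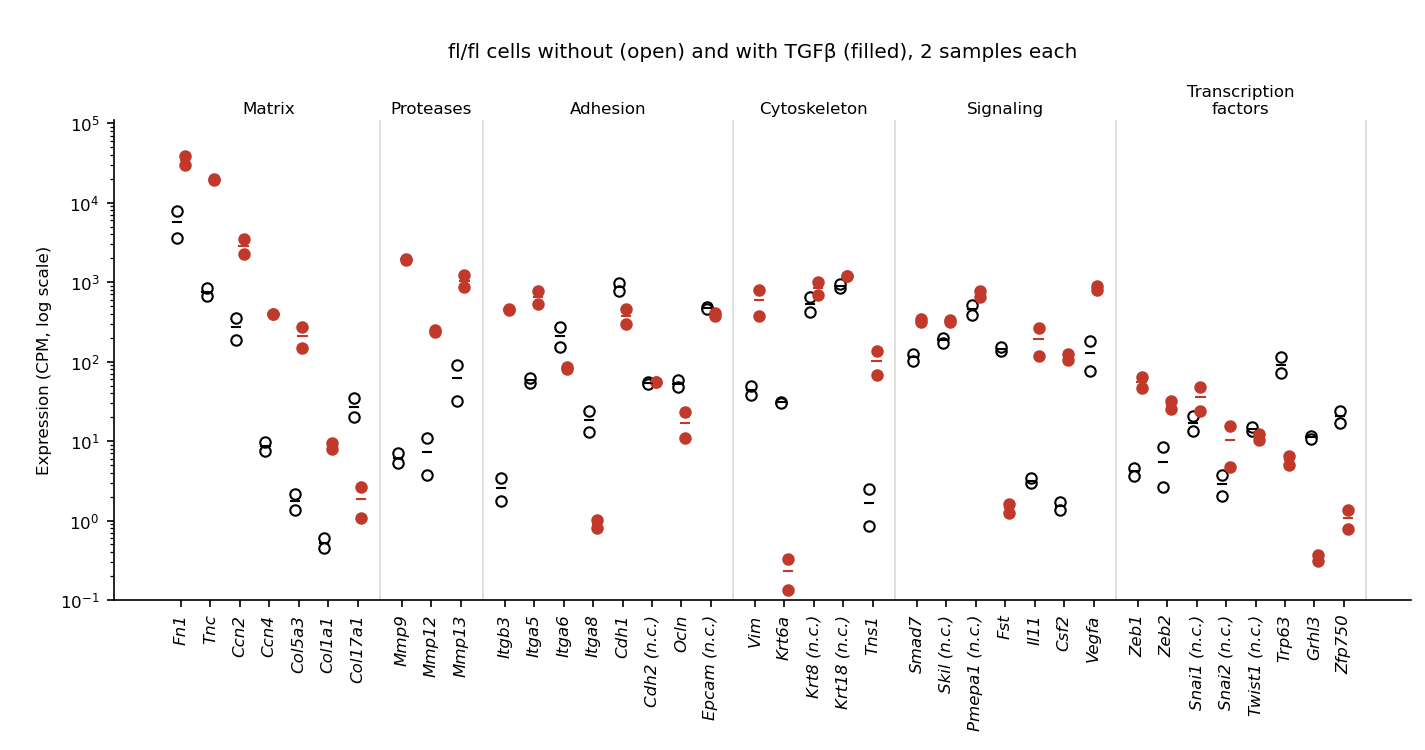
Expression in CPM on a log scale of 38 genes in the 2 untreated (open circles) and 2 TGFβ-treated samples (filled circles) of fl/fl cells, grouped by function. Tick marks show the group means and n.c. marks genes not called. Tnc samples lie at 667 and 837 CPM without and at 19931 and 19103 CPM with TGFβ, while those of Cdh2 and Epcam lie close together.

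Among the 24 tested collagens, 8 rose and 3 fell, with a list median of 0.40, and 1 fell without replicate 1 of the untreated or of the treated samples. Col5a3, a chain of the fibril-regulating collagen V, was at 2.13 and 1.35 CPM without and 147 and 274 CPM with TGFβ (log2 fold change 6.22 ± 0.39 SE, adjusted p = 2.43e-08). The fibrillar Col1a1, from 0.604 and 0.449 CPM to 7.98 and 9.6 CPM (2.68 ± 0.40 SE, adjusted p = 0.000249), and Col27a1, from 0.362 and 0.823 to 6.39 and 10.8 CPM (2.57 ± 0.22 SE, adjusted p = 8.5e-07), rose from levels near the detection floor. All collagens together held 0.208% and 0.213% of reads without and 0.24% and 0.293% with TGFβ. The most abundant of them, Col12a1, named after its values were seen, was at 867 and 1093 CPM without and 768 and 876 CPM with TGFβ and was not called (-0.25 ± 0.23 SE, adjusted p = 0.766). The 3 that fell belong to the basement membrane or the hemidesmosome, the anchor of basal epithelial cells. Another basement membrane chain, Col4a3, went the other way (log2 fold change 1.52). Col4a6 fell from 117 and 99.4 CPM to 17.1 and 14 CPM (-2.72 ± 0.39 SE, adjusted p = 0.00017). Col17a1 was at 34.6 and 19.9 CPM without and 1.06 and 2.65 CPM with TGFβ (-3.31 ± 0.68 SE, adjusted p = 0.0043), a call lost without replicate 1 of the untreated (adjusted p = 0.0554) or of the treated samples (adjusted p = 0.066). The third, Col4a5, changed by -1.03 (adjusted p = 0.0102), and was not called with all 56 samples in the fit (adjusted p = 0.185), after rescaling by the median of ratios (-0.98), or without replicate 1 of the untreated (adjusted p = 0.0993) or replicate 1 or 2 of the treated samples (adjusted p = 0.0908 and 0.0524).

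Laminins are the trimeric networks of the basement membrane, and 4 of 13 tested genes of this list rose while 1, the laminin receptor dystroglycan (Dag1), fell, a call lost with all 56 samples in the fit (adjusted p = 0.162), without the filter on low values (adjusted p = 0.0535) and without any 1 of the 4 samples (adjusted p of 0.0741 to 0.232). Without replicate 1 of the treated samples 2 of the list rose. Lama3, a chain of the laminin of hemidesmosomes, went from 235 and 198 to 775 and 711 CPM (log2 fold change 1.78 ± 0.36 SE, adjusted p = 0.00376). Lamb3, a β chain, was called with a change of 1.63 but not with all 56 samples in the fit (adjusted p = 0.143), nor without any 1 of the 4 samples (adjusted p of 0.0555 to 0.104).

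Enzymes that modify and crosslink collagen had 5 of 21 tested members higher and 1 lower, with a median of 0.96. Across the alternatives 1 to 10 were higher, with 1 without replicate 2 of the treated samples and 3 without replicate 1 of the treated or replicate 2 of the untreated samples. The lysyl oxidase Loxl2 had 0 reads in both untreated samples and was at 9.18 and 11.5 CPM with TGFβ. Against a floor of 3 reads over the untreated samples this was at least 180-fold higher (log2 fold change 3.50 ± 0.13 SE on the log2(CPM + 1) scale, adjusted p = 1.55e-10). The prolyl 4-hydroxylase subunit P4ha2 rose from 12.1 and 11.4 to 52.9 and 56.8 CPM (2.13 ± 0.24 SE, adjusted p = 1.54e-05). The prolyl 3-hydroxylase P3h2, which acts on basement membrane collagens, went the other way, from 34.1 and 33 to 2.97 and 2.32 CPM (-3.25 ± 0.41 SE, adjusted p = 5.36e-05). Among proteoglycans and hyaluronan genes, 3 of 16 rose and 3 fell. Without replicate 1 of the treated samples 1 rose and 1 fell, and without replicate 1 of the untreated or replicate 2 of the treated samples 1 rose. The syndecan Sdc3 rose from 33.5 and 26.5 CPM to 143 and 206 CPM (2.49 ± 0.46 SE, adjusted p = 0.00183). The hyaluronan synthase Has2 was at 40.7 and 114 CPM without and 572 and 778 CPM with TGFβ (3.27 ± 0.85 SE, adjusted p = 0.0214), and the call was lost without replicate 1 of the untreated (adjusted p = 0.212) or replicate 1 or 2 of the treated samples (adjusted p = 0.0849 and 0.155).

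Of 33 tested matrix proteases and inhibitors, 9 rose and 2 fell. Across the alternatives 6 to 12 rose and 1 to 5 fell. A single gene fell without replicate 1 of the untreated or replicate 1 or 2 of the treated samples. Mmp9, the gelatinase that cleaves denatured and basement membrane collagen, was at 5.35 and 7.04 CPM without and 1922 and 1949 CPM with TGFβ, a 312-fold difference of the means (log2 fold change 8.08 ± 0.68 SE, adjusted p = 6.09e-07). The macrophage elastase gene Mmp12 rose from 10.8 and 3.74 to 252 and 233 CPM (5.02 ± 0.60 SE, adjusted p = 2.96e-05). The collagenase Mmp13 was at 90.9 and 31.8 CPM without and 1227 and 867 CPM with TGFβ (4.23 ± 0.93 SE, adjusted p = 0.00677) and was not called without replicate 2 of the untreated (adjusted p = 0.0867) or replicate 1 of the treated samples (adjusted p = 0.0685). The aggrecanase Adamts5 was lower, at 33.5 and 51.5 CPM without and 6.88 and 10 CPM with TGFβ (-2.19 ± 0.56 SE, adjusted p = 0.0188), but the call was lost without replicate 2 of the untreated (adjusted p = 0.144) or replicate 1 or 2 of the treated samples (adjusted p = 0.155 and 0.0653). Adamts9 was also lower and had 0 reads with TGFβ, at least 29.9-fold below the untreated samples, a call lost without replicate 1 of the untreated samples (adjusted p = 0.0661).

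Integrins, the receptors that link matrix to the cytoskeleton, had 4 of 17 tested members higher and 2 lower. With edgeR, with a pseudocount of 0.1, and without replicate 2 of the untreated or replicate 1 or 2 of the treated samples 2 were higher, and without those samples 1 was lower. Itgb3, the β subunit of the vitronectin receptor, went from 3.42 and 1.76 CPM to 462 and 452 CPM (log2 fold change 7.03 ± 0.53 SE, adjusted p = 1.73e-07). Itga5, the α subunit of the fibronectin receptor, was at 53.8 and 62.1 CPM without and 526 and 777 CPM with TGFβ (3.44 ± 0.23 SE, adjusted p = 5.21e-08). Both subunits kept their calls under every alternative tried. Itga8 fell from 24.2 and 12.9 to 0.798 and 1.03 CPM (-3.29 ± 0.45 SE, adjusted p = 0.000104). The laminin receptor subunit Itga6 was called lower with -1.29, a call lost with only the 4 samples in the fit (adjusted p = 0.0613) and without replicate 2 of the untreated (adjusted p = 0.213) or replicate 1 or 2 of the treated samples (adjusted p = 0.112 and 0.0967). Of 38 focal adhesion and actomyosin genes, 4 rose and 0 fell with limma and with edgeR (13 higher and 0 lower at an unadjusted p under 0.05). Tns1, which encodes the focal adhesion protein tensin 1, rose from 0.845 and 2.51 to 68.8 and 136 CPM (5.27 ± 0.55 SE, adjusted p = 6.41e-06), and the small GTPase Rhob from 48.4 and 48.2 to 169 and 196 CPM (1.89 ± 0.33 SE, adjusted p = 0.001).

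In the list of tight and gap junctions and polarity, 8 of 35 tested genes fell and 1 rose, and the median was -0.44. That count of 8 dropped to 4 without replicate 1 of the untreated and to 3 without replicate 2 of the treated samples. Marveld3, a tight junction membrane protein, fell from 24 and 16.4 to 2.53 and 1.69 CPM (log2 fold change -2.76 ± 0.27 SE, adjusted p = 3.44e-06). Its relative occludin (Ocln) was at 58.1 and 47.5 CPM without and 23.2 and 11 CPM with TGFβ (-1.65 ± 0.29 SE, adjusted p = 0.000962), and was not called with only the 4 samples in the fit (adjusted p = 0.0633). The gap junction gene Gja1, the single member that rose, went from 174 and 231 to 464 and 524 CPM (1.29 ± 0.27 SE, adjusted p = 0.00454), which was lost without replicate 1 of the untreated (adjusted p = 0.0645) or replicate 2 of the treated samples (adjusted p = 0.058). Among 23 cadherin and desmosome genes, 4 fell and 1 rose, with 0 that rose without replicate 1 or 2 of the treated samples, and a list median of 0.02, or -0.02 with edgeR.

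E-cadherin (Cdh1), the main adhesion molecule of epithelial adherens junctions, was at 966 and 782 CPM without and 457 and 302 CPM with TGFβ, a 2.3-fold decrease of the means (log2 fold change -1.22 ± 0.25 SE, adjusted p = 0.0044). This call was sensitive, since it was lost with only the 4 samples in the fit (adjusted p = 0.0521) and without replicate 1 of the untreated (adjusted p = 0.0554) or replicate 2 of the treated samples (adjusted p = 0.0977). N-cadherin (Cdh2), often reported to replace it, was at 55.2 and 51.7 CPM without and 55.8 and 54.7 CPM with TGFβ (0.05 ± 0.27 SE, adjusted p = 1). The epithelial adhesion molecule Epcam was at 480.5 and 454 CPM without and 414 and 378 CPM with TGFβ (-0.24 ± 0.20 SE, adjusted p = 0.703). The larger decreases lay in desmosomal genes and a non-classical cadherin. The desmoglein Dsg3 fell from 206 and 67.6 to 12.9 and 3.94 CPM (-3.85 ± 0.57 SE, adjusted p = 0.00023). Perp, a desmosome-associated p53 and p63 target, fell from 502 and 537 to 195 and 191 CPM (-1.42 ± 0.16 SE, adjusted p = 1.56e-05). Cdh13 fell from 82.5 and 67.1 to 15.7 and 17.1 CPM (-2.12 ± 0.42 SE, adjusted p = 0.00318). Cdh6, with 0 reads without TGFβ, was at least 22.8-fold higher but at a mean of 1.33 CPM.

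Among 20 tested intermediate filament genes, 2 rose and 3 fell. Across the alternatives 0 to 6 fell, with 0 without replicate 2 and 1 without replicate 1 of the treated samples. Vimentin (Vim), the filament of mesenchymal cells, rose from 38.2 and 49.8 to 374 and 808 CPM (log2 fold change 3.63 ± 0.56 SE, adjusted p = 0.000365), and nestin (Nes) from 87.2 and 128 to 388 and 478 CPM (2.02 ± 0.24 SE, adjusted p = 2.93e-05). The luminal keratins Krt8, Krt18 and Krt19 were not called: Krt8 was at 422 and 649 CPM without and 698 and 1007 CPM with TGFβ (0.68 ± 0.46 SE, adjusted p = 0.564), and Krt18 at 852 and 941 against 1179.5 and 1202 CPM (0.41 ± 0.31 SE, adjusted p = 0.634). Krt19 was at 47.3 and 53.5 CPM without and 25.1 and 26.3 CPM with TGFβ, below the fold limit (-0.94 ± 0.23 SE, adjusted p = 0.0123). Krt6a, a keratin of stressed and progenitor epithelium, was at 31.1 and 30.3 CPM without and 0.133 and 0.331 CPM with TGFβ (-4.69 ± 1.07 SE, adjusted p = 0.00919). Although its groups were far apart, the call was lost when any 1 of the 4 samples was left out (log2 fold change -4.57 to -4.81). The spread in these fits is shared with other conditions, among them the Wnt3a-treated fl/fl pair at 224 and 14.3 CPM for this gene. The other members that fell were the muscle-type filament proteins syncoilin (Sync), from 3.06 and 3.67 to 0.71 and 0.588 CPM (-1.40 ± 0.30 SE, adjusted p = 0.00509), and synemin (Synm), from 8.29 and 4.19 to 0.222 and 0.625 CPM (-2.30 ± 0.64 SE, adjusted p = 0.0318). Sync was lost without replicate 2 of the treated samples (adjusted p = 0.0555), and Synm without any 1 of the 4 samples (adjusted p of 0.0542 to 0.237) or without the filter on low values (adjusted p = 0.0549).

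Within the pathway itself, 4 of 14 tested genes for TGFβ ligands, receptors and latency rose and 1 fell, with a median of 0.65. The latency protein Ltbp1, which tethers the inactive ligand to matrix, rose from 133 and 196 to 424 and 383 CPM (log2 fold change 1.31 ± 0.21 SE, adjusted p = 0.000385). Lrrc32, which holds latent TGFβ at the cell surface, went from 0.845 and 0.487 to 8.47 and 5.99 CPM (2.30 ± 0.43 SE, adjusted p = 0.00183). Nrep, a neuronal regeneration protein placed in the list for its reported link to TGFβ, rose from 23.9 and 22.9 to 365 and 355 CPM (3.89 ± 0.41 SE, adjusted p = 7.73e-06). The co-receptor betaglycan (Tgfbr3) fell from 16.4 and 23.5 to 1.69 and 2.17 CPM (-2.82 ± 0.31 SE, adjusted p = 1.31e-05). In the reported fit neither the ligand Tgfb1, at 22.5 and 26.9 CPM without and 46.8 and 61.7 CPM with TGFβ (1.10 ± 0.43 SE, adjusted p = 0.147), nor the receptor Tgfbr1, at 126 and 143 against 88.5 and 77.9 CPM (-0.69 ± 0.56 SE, adjusted p = 0.679), was called. Tgfb1 was called higher with the GC trend removed (1.07, adjusted p = 0.00698) and with only the 4 samples in the fit (adjusted p = 0.0495).

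Of 26 tested genes for SMADs and their regulators, 2 were called higher and 0 lower by limma, 2 and 1 by edgeR, and 5 and 2 had an unadjusted p under 0.05. The inhibitory Smad7, a direct target that feeds back on the receptor, rose from 124 and 102 to 345 and 319 CPM (log2 fold change 1.56 ± 0.23 SE, adjusted p = 0.000228). The kinase Hipk2 went from 43.6 and 77.6 to 165 and 186 CPM (1.57 ± 0.30 SE, adjusted p = 0.00254), a call lost without replicate 1 of the untreated samples (adjusted p = 0.054). The transcriptional feedback inhibitor Skil was at 201 and 172 CPM without and 336 and 314 CPM with TGFβ and was not called (0.80 ± 0.42 SE, adjusted p = 0.36). Pmepa1, another feedback inhibitor, was at 519 and 389 against 766 and 649.5 CPM (0.65 ± 0.39 SE, adjusted p = 0.459). For both, the treated samples lay above the untreated ones, with differences below the limit of 1 on the log2 scale.

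The activin and BMP branch, whose ligands are relatives of TGFβ, had 4 of 20 tested members higher and 5 lower, with 2 higher without replicate 2 of the treated samples. The activin antagonist follistatin (Fst) was at 136 and 151 CPM without and 1.24 and 1.62 CPM with TGFβ, a 101-fold lower mean (log2 fold change -5.90 ± 0.41 SE, adjusted p = 8.09e-08). A second activin antagonist, Fstl3, moved the opposite way, from 12.2 and 8.65 to 68.2 and 87.2 CPM (2.79 ± 0.30 SE, adjusted p = 7.82e-06). Inhbb, the β subunit of activin B, fell from 54.7 and 20.8 to 2 and 3.27 CPM (-3.28 ± 0.40 SE, adjusted p = 3.1e-05). The Id genes, targets of BMP signaling, were not called in the reported fit. Id1 was at 16.4 and 25.4 CPM without and 6.7 and 11.2 CPM with TGFβ (-1.15 ± 0.40 SE, adjusted p = 0.0985), and was called lower with the GC trend removed (-1.10, adjusted p = 0.0123). For Id2 and Id3 the treated and untreated samples overlapped.

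Other signaling lists held members that rose and members that fell. Of 46 growth factor and receptor genes, 9 rose and 3 fell. Across the alternatives 1 to 7 fell, with 1 without replicate 1 of the treated samples. The angiogenic factors Vegfa, from 182 and 75.5 to 898 and 807 CPM (log2 fold change 2.85 ± 0.41 SE, adjusted p = 0.000193), and Vegfc, from 13.8 and 13.2 to 142 and 100.2 CPM (3.05 ± 0.45 SE, adjusted p = 0.000236), rose, as did the scatter factor Hgf, from 0.201 and 0.936 to 11.1 and 12.3 CPM (3.05 ± 0.33 SE, adjusted p = 1.13e-05). The epidermal growth factor receptor ligand Epgn fell from 60.4 and 69.8 to 4.3 and 3.9 CPM (-3.69 ± 0.58 SE, adjusted p = 0.000426). In the list of cytokines and chemokines, 4 of 39 rose and 8 fell, or 4 to 5 that fell in the fits without replicate 1 of the untreated or either treated sample. Il11, an interleukin of the IL-6 family, rose from 2.94 and 3.41 to 116 and 264 CPM (5.40 ± 0.34 SE, adjusted p = 2.54e-08), and Csf2, which encodes GM-CSF, from 1.69 and 1.35 to 125 and 106 CPM (5.53 ± 0.45 SE, adjusted p = 4.79e-07). The chemokine Cxcl5 fell from 1126 and 2054 to 170.4 and 166 CPM (-3.17 ± 0.58 SE, adjusted p = 0.00162). Cxcl3 fell from 64 and 58.8 to 10.8 and 12.8 CPM (-2.29 ± 0.33 SE, adjusted p = 0.000193). Ccl20, another chemokine, fell from 21 and 25.2 to 1.91 and 1.21 CPM (-3.24 ± 0.66 SE, adjusted p = 0.00374).

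In the Wnt pathway list, 5 of 39 tested genes rose and 5 fell. Across the alternatives 2 to 6 rose and 2 to 6 fell, with 2 in each direction without replicate 1 of the treated samples. It was 3 higher and 2 lower without replicate 2 of the untreated samples. There were 3 that fell without replicate 1 of the untreated or replicate 2 of the treated samples. The ligand Wnt11, mostly linked to β-catenin-independent signaling, went from 0.201 and 0.262 to 6.52 and 9.12 CPM (log2 fold change 2.82 ± 0.28 SE, adjusted p = 3.21e-06). The secreted inhibitor Sfrp1 fell from 10.7 and 22.2 to 1.24 and 1.25 CPM (-2.87 ± 0.45 SE, adjusted p = 0.000422), and the R-spondin receptor Lgr4 from 75 and 68.8 to 20.1 and 17.1 CPM (-1.90 ± 0.19 SE, adjusted p = 3.57e-06). Axin2, the feedback inhibitor read as the standard β-catenin target, was at 0.161 and 1.46 CPM without and 0.0887 and 0.0736 CPM with TGFβ and was not called (-0.64 ± 0.45 SE, adjusted p = 0.581). Of 14 Notch pathway genes, 3 rose and 1 fell, with 1 that rose without replicate 1 of the treated and 0 that fell without replicate 1 of the untreated samples. The receptor Notch4 rose from 0.443 and 0.524 to 4.26 and 6.03 CPM (2.04 ± 0.21 SE, adjusted p = 5.99e-06).

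Factors that maintain epithelial identity were lower as a list. Of 28 tested epithelial transcription factors, 15 fell and 0 rose at a list median of -1.27 (23 lower and 1 higher at an unadjusted p under 0.05, 15 lower and 0 higher with edgeR), and 11 to 19 fell across the alternatives. Trp63, the master regulator of basal and stratified epithelium, fell from 113 and 71.1 to 4.97 and 6.55 CPM (log2 fold change -3.76 ± 0.39 SE, adjusted p = 6.41e-06). Zfp750, a p63 target in epidermal differentiation, went from 24 and 17.1 to 1.38 and 0.772 CPM (-3.37 ± 0.60 SE, adjusted p = 0.00128), and the grainyhead factor Grhl3 from 11.5 and 10.7 to 0.31 and 0.368 CPM (-3.18 ± 0.62 SE, adjusted p = 0.00278). The members that fell also included Grhl1, Ovol1, Elf5, Klf4, Tfap2a, Tfap2b, Tfap2c, Cebpd, Casz1, Pax8 and Vdr, with changes between -1.12 for Tfap2a and -2.95 for Klf4. They included the luminal factor Elf5 as well as basal and epidermal ones. The sum of the basal markers, given above, was also lower with TGFβ, and Trp63 was the 1 marker called among its 6 tested members. The part of basal cells in these decreases was not tested.

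The transcription factors known to drive EMT were split. Zeb1, a repressor of E-cadherin, rose from 4.63 and 3.67 to 46.4 and 63.4 CPM (log2 fold change 3.43 ± 0.54 SE, adjusted p = 0.000402). Its paralog Zeb2 was at 8.37 and 2.66 CPM without and 31.8 and 25.3 CPM with TGFβ (2.32 ± 0.66 SE, adjusted p = 0.0342), but was not called with edgeR (adjusted p = 0.097), with a pseudocount of 0.1 (adjusted p = 0.0667), without the filter on low values (adjusted p = 0.0588), or without replicate 2 of the untreated (adjusted p = 0.293) or replicate 1 or 2 of the treated samples (adjusted p = 0.196 and 0.127). The other 3 classical EMT factors were not called in the reported fit. Snai1 was at 13.5 and 20.7 CPM without and 23.9 and 47.8 CPM with TGFβ (0.97 ± 0.56 SE, adjusted p = 0.424). Snai2 was at 3.74 and 2.02 against 15.7 and 4.74 CPM (1.37 ± 0.46 SE, adjusted p = 0.0814). Twist1 was at 13.5 and 15 against 10.4 and 12.1 CPM (-0.32 ± 0.23 SE, adjusted p = 0.627). Snai2 was called higher with the GC trend removed (1.37, adjusted p = 0.0229) and without replicate 2 of the treated samples (2.14, adjusted p = 0.0128). Of all 22 tested genes in the list, 2 rose and 3 fell. Across the alternatives 1 to 5 rose, with 1 without replicate 2 of the untreated or replicate 1 of the treated samples. There was 1 that fell without replicate 1 of the untreated or replicate 1 or 2 of the treated samples. The stable one among those that fell was the forkhead factor Foxc1, from 46.5 and 38.7 to 13.7 and 13.6 CPM (-1.57 ± 0.25 SE, adjusted p = 0.000492). Among 31 immediate early and AP-1 related factors, 5 rose and 2 fell. There were 3 that rose without replicate 2 of the treated samples and 1 that fell without replicate 1 of the untreated or replicate 1 or 2 of the treated samples. Nfatc2, a calcium-regulated factor, rose from 2.25 and 5.05 to 30.2 and 43.1 CPM (3.06 ± 0.24 SE, adjusted p = 2.4e-07).

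**Figure D3:**
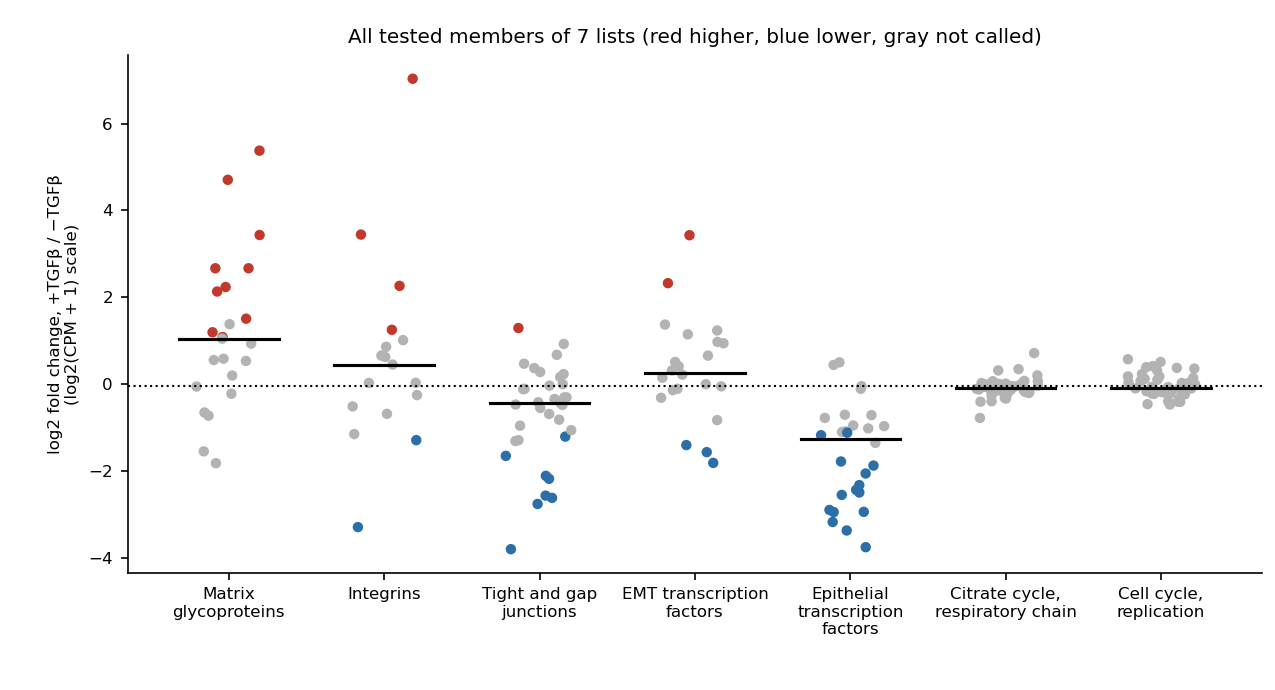
Log2 fold change (with over without TGFβ, log2(CPM + 1) scale) of every tested member of 7 function lists, red where called higher, blue where called lower and gray where not called. Bars mark list medians, from 1.05 for matrix glycoproteins to -1.27 for epithelial transcription factors, and the dotted line marks the median of all tested genes, -0.039, next to which the citrate cycle and cell cycle genes lie.

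In metabolism, calls fell on single genes, and samples of the same group differed. The cell cycle and replication genes summed to 5030 and 8760 CPM without and 5120 and 7800 CPM with TGFβ. Glycolysis genes summed to 6200 and 11300 against 6510 and 8260 CPM. The citrate cycle and respiratory chain sums lay closer, at 8140 and 9220 against 8080 and 8400 CPM. A gene not called in these lists is not shown to be unchanged. None of 40 citrate cycle and respiratory chain genes and none of 44 cell cycle and replication genes was called by limma or by edgeR, and at an unadjusted p under 0.05 these lists held 1 and 0 genes, both medians being -0.09. Without replicate 2 of the untreated samples, 1 gene of each list was called higher. Of 29 glycolysis genes 1 was called higher and 1 lower, and of 33 genes of fatty acid synthesis and storage 0 and 1. Of 26 genes of cholesterol synthesis and uptake it was 1 and 0. These shares are near the 4.06% and 3.44% of all genes. The cholesterol gene called was the transporter Abcg1, not a synthesis enzyme. It was not called with edgeR (adjusted p = 0.183), a pseudocount of 0.1 (adjusted p = 0.234) or only the 4 samples in the fit (adjusted p = 0.0674). Hexokinase 2 (Hk2), the entry step of glycolysis, was at 242 and 141 CPM without and 541 and 379 CPM with TGFβ (log2 fold change 1.29 ± 0.29 SE, adjusted p = 0.0085), and was lost with only the 4 samples in the fit (adjusted p = 0.0825) and without replicate 2 of the untreated (adjusted p = 0.129) or replicate 1 of the treated samples (adjusted p = 0.125). The stearoyl-CoA desaturase Scd1 was at 1318 and 1651 CPM without and 322 and 446 CPM with TGFβ (-1.96 ± 0.43 SE, adjusted p = 0.00643), a call lost without replicate 2 of the untreated (adjusted p = 0.0598) or replicate 1 of the treated samples (adjusted p = 0.0838). Argininosuccinate synthase (Ass1), an enzyme of arginine synthesis, rose from 11.1 and 15 to 37.7 and 34.2 CPM (1.40 ± 0.25 SE, adjusted p = 0.00112).

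Among glutathione and antioxidant enzymes, 4 of 35 tested genes fell and 1 rose, and across the alternatives 3 to 7 fell and 0 to 3 rose. Gsta4, a glutathione transferase for lipid aldehydes, fell from 30.8 and 63.9 to 3.64 and 3.71 CPM (log2 fold change -3.28 ± 0.38 SE, adjusted p = 1.92e-05), and the microsomal Mgst1 from 145 and 185 to 26.3 and 17.8 CPM (-2.86 ± 0.48 SE, adjusted p = 0.000767). The list of ER chaperones and secretory pathway genes had a median of 0.47, with 29 of 32 tested members above 0, and 3 were called higher and 0 lower by limma and by edgeR (10 and 0 at an unadjusted p under 0.05). These were the ER stress and secretion transcription factors Creb3l1, from 1.77 and 0.524 to 15.2 and 17.7 CPM (3.08 ± 0.38 SE, adjusted p = 4.39e-05), and Creb3l2, from 6.96 and 12.2 to 44.3 and 67 CPM (2.43 ± 0.30 SE, adjusted p = 4.39e-05), and the KDEL receptor Kdelr3, from 6.8 and 6.85 to 23.6 and 32.3 CPM (1.87 ± 0.20 SE, adjusted p = 7.69e-06). Without replicate 2 of the untreated samples, 7 members of that list were called higher.

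Several of the largest changes lay outside these themes. Dgkk was at 3.1 and 4.45 CPM without and 586 and 663 CPM with TGFβ (log2 fold change 7.05 ± 0.62 SE, adjusted p = 1.05e-06), and Hsd11b2, which inactivates glucocorticoids, went from 0.604 and 1.61 to 119 and 105 CPM (5.78 ± 0.26 SE, adjusted p = 6.31e-10). Among the decreases, Scara5 went from 197 and 47.1 to 0.665 and 0.221 CPM (-6.10 ± 0.63 SE, adjusted p = 5.81e-06), and the Ras association protein Rassf4 from 233 and 366 to 4.88 and 3.6 CPM (-5.81 ± 0.79 SE, adjusted p = 0.000104). The non-muscle myosin heavy chain Myh14 fell from 84.4 and 83.8 to 2.44 and 1.54 CPM (-4.85 ± 0.85 SE, adjusted p = 0.00112). The pentraxin Ptx3 fell from 27.6 and 22 to 0.177 and 0.147 CPM (-4.47 ± 0.22 SE, adjusted p = 1.31e-09), as did the GABA receptor subunit Gabrp from 39.8 and 25.9 to 0.177 and 0.405 CPM (-4.69 ± 0.57 SE, adjusted p = 3.5e-05).

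To see where the fl/fl response differed from the rest of the series, it was set against the mean TGFβ response of the 6 other genotypes, which carry β-catenin mutant alleles over a floxed or a deleted allele. The difference was called for 279 of 13754 genes (2.03%), with 133 more positive and 146 more negative in fl/fl cells, and for 82 genes with edgeR. Without replicate 1 or replicate 2 of the treated fl/fl samples it was called for 154 and 158 genes. Since the labels do not give the lines behind each genotype, genotype and cell line cannot be told apart. The matrix glycoproteins did not stand out here, with 0 of 25 called by limma or edgeR. At an unadjusted p under 0.05 there were 2, beside 1082 of all 13754 genes. The Fn1 response was 2.67 in fl/fl cells and 0.68 to 4.90 in the others (difference -0.16 ± 0.70 SE, adjusted p = 1) and that of Tnc 4.71 against 3.12 to 9.43 (-1.06 ± 0.68 SE, adjusted p = 1). Mmp9, Tnc, Ccn2 and Itgb3 were called higher in all 6 other genotypes as well.

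Genes with a larger response in fl/fl cells came from several functions. Il11 had a log2 fold change of 5.40 in fl/fl cells and between -0.50 and 3.21 in the others, a difference of 4.66 ± 0.41 SE (limma adjusted p = 1.41e-09). The scavenger receptor-like gene Scara3, at 3.87 and 3.48 CPM without and 53.5 and 64.5 CPM with TGFβ, rose by 3.68 in fl/fl cells and changed by 0.00 to 1.03 elsewhere (difference 3.44 ± 0.19 SE, adjusted p = 1.38e-14), but was not called by edgeR (2.33, adjusted p = 1). Loxl2 rose by 3.50 against 0.03 to 2.76 in the others (difference 2.89 ± 0.18 SE, adjusted p = 2.45e-13), and Itgb3 by 7.03 against 1.78 to 4.74 (3.35 ± 0.49 SE, adjusted p = 2.81e-05). Neither difference was called by edgeR, whose ratios are taken without a pseudocount of 1 (adjusted p = 1 for both). There the difference was larger for Loxl2 (8.02) and smaller for Itgb3 (1.27), and why the calls were lost was not tested. Those of Il11, Fst and Cbr2 were called by edgeR (adjusted p = 0.000525, 0.00208 and 0.0104). Among decreases, Fst changed by -5.90 against -3.43 to 0.65 (difference -3.68 ± 0.55 SE, adjusted p = 4.27e-05), and the carbonyl reductase Cbr2, at 85.4 and 53.1 CPM without and 1.82 and 2.32 CPM with TGFβ, by -4.48 against -3.79 to 1.66 (-3.93 ± 0.78 SE, adjusted p = 0.00185). The acute phase protein gene Orm1, at 18.9 and 35.5 CPM without and 0.399 and 0.552 CPM with TGFβ, had a difference of -3.89 ± 0.80 SE (adjusted p = 0.00278) that was lost with edgeR (adjusted p = 0.364) and without replicate 2 of the untreated samples (adjusted p = 0.0603). Of 29 epithelial transcription factors, 6 had a more negative response in fl/fl cells than the mean of the others, Grhl3, Elf5, Tfap2b, Trp63, Pax8 and Vdr, and 2 by edgeR. The list as a whole was not particular to fl/fl cells, where 15 fell at a median of -1.27. In ΔC/fl cells 15 fell (median -1.38) and in dm/fl cells 14 (-1.01). In D164A/fl cells 1 fell (-0.28), in D164A/- cells 6 (-0.36), in ΔC/- cells 5 (-0.53) and in dm/- cells 7 (-0.46). In the activin and BMP list 1 of 26 was more positive, Fstl3 (difference 1.80 ± 0.37 SE, adjusted p = 0.00274), and 3 more negative, Fst, Inhbb (-3.07 ± 0.69 SE, adjusted p = 0.00736) and Nog (-1.54 ± 0.40 SE, adjusted p = 0.0286). With edgeR the 3 negative differences were called and that of Fstl3 was not (1.61, adjusted p = 0.303). For Trp63 the response was -3.76 against -3.37 to -0.08 (difference -2.18 ± 0.51 SE, adjusted p = 0.0108), which edgeR did not call (adjusted p = 0.361).

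**Figure D4:**
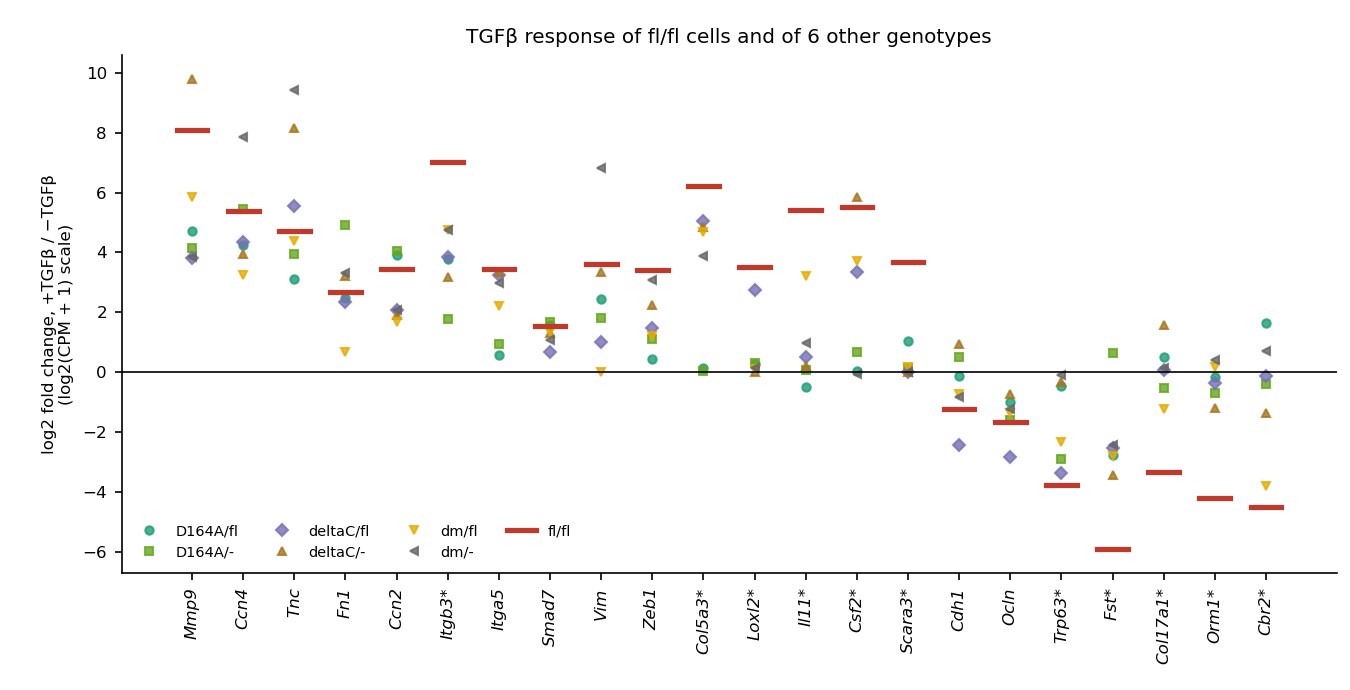
Log2 fold change with TGFβ (log2(CPM + 1) scale) of 22 genes in fl/fl cells (red bars) and in 6 other genotypes (symbols, 1 for each genotype, each from 2 treated and 2 untreated samples). Asterisks mark genes whose fl/fl response was called different from the mean of the others. For Fn1 and Smad7 the fl/fl bar lies among the symbols, while for Itgb3 and Il11 it lies above and for Fst below all 6.

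Genes called in fl/fl cells were often called in only some other genotypes. The fl/fl calls came from the fit of 24 samples and those of the other genotypes from the fit of all 56. In the latter, 860 genes were called in fl/fl cells. Between 3.38% (D164A/fl) and 10.3% (dm/fl) of all tested genes were called in either direction in a single other genotype. Of the 522 genes that rose, 119 (22.8%) were called higher in at least 4 of the 6 others, 21 (4.02%) in all 6 and 112 (21.5%) in 0. Of the 443 that fell, 39 (8.8%) were called lower in at least 4, 1 in all 6 and 102 (23%) in 0. A gene not called in another genotype is not shown to differ there, which the difference above tests instead.

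The TGFβ response was set beside the response of the same cells to Wnt3a, although dose, time and untreated samples were separate. Wnt3a changed 66 genes in fl/fl cells, or 0.513% of those tested. The 2 Wnt3a-treated samples correlated at r = 0.897 on the log2(CPM + 1) scale, against 0.981 for the TGFβ-treated pair. The untreated pairs were at 0.977 and 0.963. A gene not called with Wnt3a is therefore not shown to be unshared. There were 24 genes called in both responses, which is 2.49% of the TGFβ list and 36.4% of the Wnt3a list, and 22 of them had the same direction. The difference between the responses was called for 540 genes (4.2%), 331 more positive and 209 more negative with TGFβ, for 368 with edgeR and for 124 with only the samples compared in the fit. Without replicate 2 of the Wnt3a-treated samples it was called for 2917 genes, and without replicate 1 of them for 313. The difference moved with the GC content of the genes (Spearman rho -0.57 across genes), while the TGFβ response did not (rho 0.001), and the part of GC content was not tested beyond the alternative fit with its trend removed, in which 775 genes were called.

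Mmp9, at 10.7 and 10.3 CPM without and 4.7 and 33.4 CPM with Wnt3a, had a difference of 7.80 ± 0.96 SE (adjusted p = 9.99e-05), Itgb3 of 6.98 ± 0.74 SE (adjusted p = 2.31e-05) and Csf2 of 6.49 ± 0.64 SE (adjusted p = 1.04e-05). Axin2 responded to Wnt3a and was near the floor with TGFβ: it was at 0.252 and 0.652 CPM without and 121 and 51 CPM with Wnt3a, so its difference was -6.43 ± 0.64 SE (adjusted p = 1.05e-05). Krt6a, at 10.3 and 41.1 CPM without and 224 and 14.3 CPM with Wnt3a, had a difference of -6.12 ± 1.52 SE (adjusted p = 0.0302) that did not hold with only the samples compared in the fit (adjusted p = 0.168) or without any 1 of 6 of the 8 samples compared (adjusted p of 0.0761 to 0.158), among them replicate 1 of the Wnt3a-treated samples (-4.18). The serine protease gene Tmprss4, at 9.9 and 27.3 CPM without and 0.222 and 0.184 CPM with TGFβ but 9.21 and 12.4 CPM without and 114 and 16.9 CPM with Wnt3a, had a difference of -5.82 ± 1.00 SE (adjusted p = 0.00231), or an adjusted p of 0.0754 with only the samples compared in the fit. For both genes the 2 Wnt3a-treated samples were far apart.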

How the data were processed

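RNA of cells from MMTV-PyMT tumors was sequenced as poly(A) stranded single-end libraries. Per the study's methods and the labels, the authors aligned reads with STAR to mm10, kept unique hits and counted reads that start in RefSeq exons with QuasR. The deposited values, called CPM, are a normalized signal: reads per 1000000 reads of an effective library size. Dividing each sample by its smallest step gave whole reads for 100% of values (within 0.001 reads), so depth was known, at 22396315 to 33681869 reads over the 56 samples.

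Genes that reached 1 CPM in 2 or more fitted samples were tested on log2(CPM + 1) with limma 3.58.1 (R 4.3.3, empirical Bayes with trend, two-sided). The TGFβ response of fl/fl cells and its difference from the Wnt3a response came from 1 fit of 24 samples (fl/fl, D164A/fl and D164A/-, 12 conditions, which share 1 estimate of the spread), and the difference from the other genotypes from all 56 samples. No fit dropped or imputed a sample except those that leave 1 out. Calls needed a Benjamini-Hochberg adjusted p of at most 0.05 and a log2 change of at least 1. edgeR 4.0.16 (quasi-likelihood) on the recovered reads, with the scaling of the deposited values, was an alternative, and it called 1030 genes for the TGFβ response. Other alternatives changed the pseudocount, the filter, the scaling, the samples fitted, a GC trend and the replicate block. Fits were tested on simulated data.

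Genes and lists were chosen with earlier results of these data known. Named were the 8 largest increases and decreases, up to 3 called genes in each direction of each list, and a set of core genes of TGFβ signaling and EMT whether called or not. A few genes that this rule names are not reported here. Of 20314 genes, 20261 had a RefSeq symbol. A fold against a group with 0 reads used a floor of 3 reads over the group, which covers counting error only. Antisense reads were separated by the stranded libraries only as far as the authors' counting used strand, which is not given in the sources used here. Promoters came from RefSeq on GRCm38.p6, the same assembly as mm10.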

Additional observations from a re-analysis of the deposited data

Results flagged for a closer look

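Each result here was singled out by a difference between the TGFβ response of fl/fl cells and another response under the same kind of contrast, by a test of the difference itself. Groups of 2 samples are too small to be examined for a sample far from the others.

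Between the TGFβ response of fl/fl cells and the mean TGFβ response of the 6 other genotypes, 279 genes differed. Among the largest differences were those of Il11 (4.66) and Scara3 (3.44), whose increase was larger in fl/fl cells, and Cbr2 (-3.93), Orm1 (-3.89) and Fst (-3.68), whose decrease was larger, all on the log2(CPM + 1) scale. The difference of Scara3 was 2.33 with edgeR (adjusted p = 1), and that of Orm1 was -4.47 with edgeR (adjusted p = 0.364).

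Between the TGFβ and the Wnt3a response of the same fl/fl cells, 540 genes differed. The largest differences were those of Mmp9 (7.80), Itgb3 (6.98) and Csf2 (6.49), more positive with TGFβ, and Axin2 (-6.43), Krt6a (-6.12) and Tmprss4 (-5.82), more negative with TGFβ. Dose, time and untreated samples differed between these experiments, and the part of each in the differences was not tested.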

How the results depend on the processing

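With an unadjusted p of at most 0.05 and a change of at least 1.5-fold, 1991 genes were called for the TGFβ response (962 higher, 1029 lower), 950 for the difference from the other genotypes and 2609 for the difference from Wnt3a, against 965, 279 and 540. The remaining alternatives that kept all 4 samples called 860 to 1293 genes for the response, and 76.9% to 100% of the 965 were called in the same direction. With a pseudocount of 0.1, 547 genes were higher and 574 lower, and with edgeR 500 and 530. Leaving out 1 sample gave 598 to 837 genes, 338 to 451 higher and 260 to 386 lower, and kept 58.2% to 73.5% of the 965. The count was lowest without replicate 2 of the treated samples (598) and next without replicate 1 (645). The difference from the other genotypes was called for 82 genes with edgeR and for 154 to 200 with 1 fl/fl sample left out. The difference from Wnt3a was called for 124 genes with only the samples compared in the fit and for 285 to 2917 with 1 sample left out, the last without replicate 2 of the Wnt3a-treated samples. The cause of these shifts was not tested.

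The labels give the groups the same replicate numbers but no shared batch or day. They do not say whether a replicate number stands for an fl/fl line. Deviations of same-numbered samples correlated at r = 0.665 across genes in the TGFβ experiment and 0.514 in the Wnt3a experiment, with 2 pairs each, as a hint from the data. With the replicate block, 1263 genes were called for the response, 483 for the difference from the other genotypes (601 with the GC trend also removed) and 2086 for that from Wnt3a (1729 with the GC trend also removed).

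For the 147 named genes, 1903 values were recomputed. Of these, 1710 kept direction and side of the threshold, 182 lost a call, 11 gained one and 0 changed sign. The calls gained were those of Tgfb1, Snai2 and Id1, which with the replicate block were called at 1.10 (adjusted p = 0.00442), 1.37 (adjusted p = 0.00647) and -1.15 (adjusted p = 0.0277). Of 131 called named genes, 76 were called under every alternative and 98 under all that left no sample out. For list counts, 633 of 806 stayed within 1.5 times. Depth was at least 24999966 reads in each of the 4 samples, where 1 read was worth at most 0.0444 CPM. Each group compared held 2 samples, and the p-values take their estimate of the spread from all samples of the fit.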
